A study of Mus musculus with 217 samples.

Results

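The 4 opioid receptor genes of the mouse, Oprm1 (mu), Oprd1 (delta), Oprk1 (kappa) and Oprl1 (nociceptin), were followed over the day in the ventral and dorsal striatum. The members were chosen by name, as the receptor family, and not by their values, though earlier results of these data were known. All 4 were among the 11867 genes listed for the nucleus accumbens (NAc), the 12101 listed for the dorsomedial striatum (DMS) and the 11394 listed for the dorsolateral striatum (DLS), and thus among the 11283 genes shared by the 3 tables.

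Opioid receptors are G protein-coupled receptors that act through inhibitory G proteins: they lower cyclic AMP, open inward rectifier potassium channels and close calcium channels, and so quieten the cells that carry them. In the striatum, enkephalins from Penk and dynorphins from Pdyn are made by the medium spiny neurons themselves. Mu receptors are known for marking the striosomes (patches) and for opioid reward, delta receptors for their high striatal density, kappa receptors for restraining dopamine release and for aversion, and the nociceptin receptor for a ligand that classical opioids do not share.

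Every library came from an untreated mouse of the inbred strain C57BL/6J, female or male, about 10 weeks old, and the labels name no transgene or mutation. The light cycle was 12 h on and 12 h off, and each mouse was taken at 1 of 6 times, ZT2, ZT6, ZT10 (light phase) and ZT14, ZT18, ZT22 (dark phase), where ZT counts hours from lights on. The 217 libraries came from 93 animals, as punches of 1 mm from both hemispheres: 77 of NAc (37 from females, 40 from males), 70 of DMS (34 and 36) and 70 of DLS (35 and 35), or 5 to 7 for each sex and time. The cells were not sorted, so fewer cells of a type and less RNA per cell cannot be told apart.

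Values are log2 of the authors' normalised count plus 1, called the level here. Recovered reads outside ribosomal RNA numbered 17.8 to 42.05 M per library in DMS and 5.48 to 37.3 M in DLS, while the depth is unknown in NAc, whose values carry a further adjustment that no label records. All 5 markers of medium spiny neurons were listed in every region, at mean levels of 12.5 to 15.9. The dopamine neuron genes Slc6a3 and Slc18a2 and the cortical genes Neurod6 and Neurod2 were in no table, although the summed level of the cortical list ran from 6.34 to 14.3 over the NAc libraries. DMS libraries fell into classes of low (37 libraries, at most 29.9% mitochondrial rRNA) and high share (33 libraries, at least 35.3%), and animals numbered up to 29 and from 31 formed separate ranges whose levels differed in DMS and DLS. Both splits touch the receptors, and their values are given where they change an order or a call. They were drawn from these data and the animals' names, and what produced them was not tested.

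The receptor genes differ in size and in the composition of their promoters. Oprm1 (ENSMUSG00000000766) spans chr10:6758506-7038198 on the plus strand of GRCm38, Oprd1 (ENSMUSG00000050511) chr4:132110726-132144486 on the minus strand, Oprk1 (ENSMUSG00000025905) chr1:5588466-5606131 on the plus strand and Oprl1 (ENSMUSG00000027584) chr2:181715016-181720985 on the plus strand. Their annotated exons cover 8037, 4021, 9151 and 3753 bases in that order. Oprm1 shares exonic sequence with Ipcef1, a gene on the opposite strand that every table lists. No source says if strand was used when reads were counted, and reads of this pair cannot be told apart with certainty. Residuals of the 2 genes correlated little across libraries (r = -0.05 over 77 NAc, 0.04 over 70 DMS and 0.11 over 70 DLS libraries), and Ipcef1 showed no rhythm in any region (adjusted p of 0.707, 0.881 and 0.865, limma).

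Promoter windows of 300 bases (250 before to 50 after an annotated start; RefSeq, GRCm38.p6) were searched on both strands for letters bound by clock and related factors: the E-box CACGTG, the E-prime box CACGTT, the D-box TTATGTAA or TTACGTAA, the ROR element TAGGTCA, the cyclic AMP element TGACGTCA and AGAACA, a single hexamer of the longer site of the glucocorticoid receptor. Only 2 of these were met among the 7 windows held for 3 of the receptors. One start of each gene is shown, with the matched letters in capitals. The first is Oprm1, chr10:6758343-6758642 (plus strand), which held none. The second is Oprd1, chr4:132144437-132144736 (minus strand), with an E-box 86 bases before the start. The last is Oprl1, chr2:181714766-181715065 (plus strand), with AGAACA 206 bases before the start, read on the opposite strand.
Oprm1: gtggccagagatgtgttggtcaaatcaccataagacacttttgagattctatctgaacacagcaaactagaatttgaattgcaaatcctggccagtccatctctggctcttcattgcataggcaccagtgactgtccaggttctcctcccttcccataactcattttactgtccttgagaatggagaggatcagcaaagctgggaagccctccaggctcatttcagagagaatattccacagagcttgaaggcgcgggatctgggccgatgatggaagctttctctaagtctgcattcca
Oprd1: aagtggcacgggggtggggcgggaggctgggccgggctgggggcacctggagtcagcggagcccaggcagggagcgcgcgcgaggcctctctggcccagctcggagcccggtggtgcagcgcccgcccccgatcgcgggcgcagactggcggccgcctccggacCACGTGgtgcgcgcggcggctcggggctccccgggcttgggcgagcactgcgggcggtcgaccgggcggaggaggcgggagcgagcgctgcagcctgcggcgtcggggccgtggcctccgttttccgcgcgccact
Oprl1: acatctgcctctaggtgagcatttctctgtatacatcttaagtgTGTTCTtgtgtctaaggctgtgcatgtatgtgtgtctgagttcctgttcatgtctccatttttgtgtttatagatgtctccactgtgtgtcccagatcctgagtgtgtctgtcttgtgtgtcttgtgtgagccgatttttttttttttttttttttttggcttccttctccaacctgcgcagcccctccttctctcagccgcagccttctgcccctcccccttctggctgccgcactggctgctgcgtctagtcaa
The Oprd1 window stood apart in composition, with 79.3% G and C and 43 CG pairs against 47.3 to 52.3% and 3 to 5 pairs in the 3 Oprm1 windows and 47.7 to 53.7% and 2 to 5 pairs in the 3 Oprl1 windows. Of 32851 promoter windows of this length, 7.15% held the E-box and 18.97% the hexamer AGAACA. A second Oprl1 window, chr2:181715440-181715739, held AGAACA 64 bases before its start. These matches describe the letters only.

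The order of the receptors by median was the same in DMS and DLS and another in NAc. Per kilobase of exon, Oprl1 led in NAc with a median of 180 normalised counts (range 95.02 to 294), followed by Oprk1 with 88.2 (38.8 to 151), Oprd1 with 62.9 (23.2 to 119) and Oprm1 with 50.8 (27.5 to 88.2). In DMS, Oprd1 had a median of 127 (70.1 to 208) and Oprl1 of 109 (57.6 to 171), above Oprk1 with 67.6 (36.3 to 103) and Oprm1 with 33.7 (16.8 to 55.6). In DLS, Oprd1 with 96.5 (50.4 to 174) and Oprl1 with 89.4 (63.3 to 152) again lay above Oprk1 with 35.8 (13.6 to 73.7), and Oprm1 had 16.99 (6.56 to 38.3). Oprm1 was thus the lowest by median everywhere, and it lay below Oprl1 in each of the 217 libraries. Neighbours in these orders mostly overlapped: Oprd1 exceeded Oprl1 in 41 of 70 DMS and 40 of 70 DLS libraries, and Oprm1 exceeded Oprd1 in 24 of 77 NAc libraries. In DMS the order of Oprd1 and Oprl1 went with the class of mitochondrial rRNA share: Oprd1 was above Oprl1 in 37 of 37 low-class libraries and in 4 of 33 of the high class. In DLS it was above in 17 of 31 libraries of the lower and 23 of 39 of the upper number range.

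**Figure D1:**
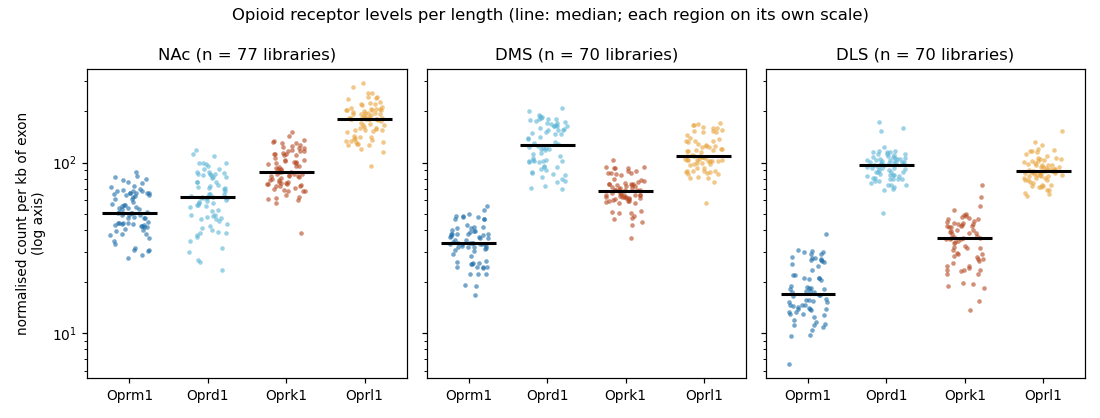
Normalised counts per kilobase of annotated exon (log axis) of the 4 receptors, with 1 point per library and the median as a line, with 77 libraries of NAc, 70 of DMS and 70 of DLS. Oprm1 has the lowest median in each panel (50.8, 33.7 and 16.99), and Oprd1 lies below Oprk1 in NAc but above it in DMS and DLS.

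Per length of annotated exon, the place of the delta against the kappa receptor turned over between ventral and dorsal tissue. Per length, Oprk1 was above Oprd1 in 65 of 77 NAc libraries, whereas Oprd1 was above Oprk1 in 64 of 70 DMS and 69 of 70 DLS libraries. The 6 DMS exceptions were all of the high class, where Oprd1 led in 27 of 33 libraries. The mean difference of Oprd1 minus Oprk1 was -0.57 ± 0.62 log2 over the 77 libraries of NAc (SD), 0.90 ± 0.62 over the 70 of DMS and 1.49 ± 0.61 over the 70 of DLS. In DMS the order depended on the length correction: without it the mean level of Oprk1 (9.27) was above that of Oprd1 (8.98), as in NAc. In DLS Oprd1 (8.58) was above Oprk1 (8.28) without it too. These differences are taken within libraries, and the tables were normalised separately, so no test was made between regions.

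The levels themselves graded from region to region for Oprm1 and Oprk1, side by side and without a test. The mean level of Oprm1 was 8.69 ± 0.40 (SD, n = 77 libraries) in NAc, then 8.07 ± 0.37 (n = 70) in DMS, then 7.14 ± 0.51 (n = 70) in DLS, above 36.1%, 23.1% and 10.99% of the genes listed there. Oprk1 had 9.69 ± 0.37, 9.27 ± 0.30 and 8.28 ± 0.48, and Oprl1 9.38 ± 0.32, 8.73 ± 0.33 and 8.41 ± 0.25. Oprd1 had its lowest mean in NAc, with 7.94 ± 0.52 against 8.98 ± 0.43 in DMS and 8.58 ± 0.28 in DLS.

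Daily rhythm was tested with a 24 h cosine and sine plus sex in limma, with Benjamini-Hochberg adjustment over all genes of the table, and an adjusted p under 0.05 made a call. Amplitudes give how far the fitted curve rises above its mean, in log2, with its SE. All 4 receptors passed in DMS, 2 in DLS and none in NAc. The shares of all genes that passed were 51.3% in DMS, 21% in DLS and 2.56% in NAc, so a call in DMS sets a gene little apart from the rest of its table. The median amplitude of the 4 receptors was 0.21 in DMS, 0.16 in DLS and 0.07 in NAc, beside 0.11, 0.07 and 0.07 over all genes. Oprm1 and Oprd1 on the one hand, and Oprk1 and Oprl1 on the other, had fitted peaks far apart in the dorsal regions. The peaks of one pair lay 10.4 to 11.5 h from those of the other in DMS and 8.07 to 10.7 h in DLS. In DLS neither Oprm1 nor Oprd1 passed, so their peak times there are uncertain.

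**Figure D2:**
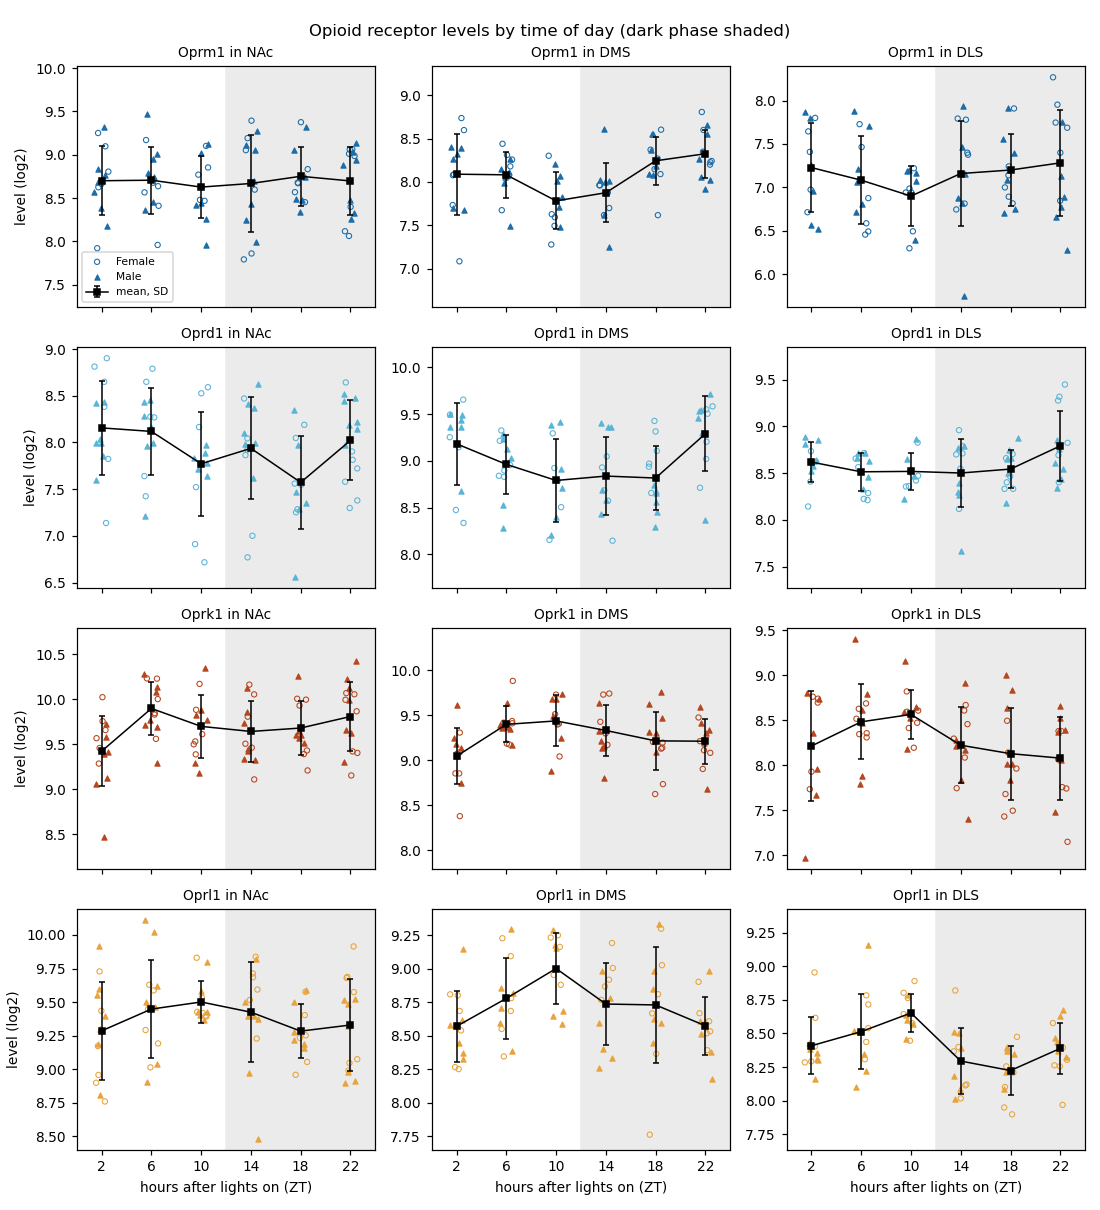
Level (log2) of each receptor (rows) in each region (columns) against hours after lights on, with females as open circles, males as filled triangles, the mean and SD of all libraries at a time as black squares and bars, and the dark phase shaded; panels of a row share the height of their scale, not its position. In DMS the means of Oprm1 and Oprd1 are lowest at ZT10 and highest at ZT22, and those of Oprk1 and Oprl1 are lowest at ZT2 and highest at ZT10; the libraries of different times overlap throughout.

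In DMS, Oprm1, the mu receptor, was lowest at ZT10 and highest late in the dark phase. Its level at ZT10 ran from 7.28 through a median of 7.71 to 8.30 (n = 11), and at ZT22 from 7.92 through 8.25 to 8.81 (n = 12). The upper part of the ZT10 libraries overlapped the lower part of those at ZT22. The fitted amplitude was 0.24 ± 0.06, a change of 1.40-fold from trough to peak, with the peak at ZT22.2 ± 0.88 (SE, limma adjusted p = 0.0022).

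Oprd1, the delta receptor, followed a like course in DMS, with levels from 8.15 through a median of 8.79 to 9.41 at ZT10 (n = 11) and from 8.37 through 9.48 to 9.71 at ZT22 (n = 12). Its amplitude was 0.25 ± 0.07 (1.41-fold), with the peak at ZT0.37 ± 1.01 (adjusted p = 0.00751, limma). The 2 ZT22 libraries of the high class of mitochondrial rRNA share, at 8.37 and 8.71, lay below the median at ZT10.

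Oprk1, the kappa receptor, ran the other way. Its DMS level at ZT2 went from 8.38 through a median of 9.08 to 9.61 (n = 12), and at ZT10 from 8.88 through 9.49 to 9.74 (n = 11), again with overlap. The amplitude was 0.15 ± 0.05 (1.24-fold) with the peak at ZT10.7 ± 1.149 (adjusted p = 0.018, limma). Oprl1, the nociceptin receptor, went from 8.25 through 8.56 to 9.15 at ZT2 and from 8.59 through 9.15 to 9.29 at ZT10, with an amplitude of 0.18 ± 0.05 (1.29-fold) and the peak at ZT10.8 ± 1.06 (adjusted p = 0.0102). The fitted peaks of these 2 genes lay 0.05 h apart, and that of Oprm1 lay 11.5 h from that of Oprk1. None of the 5 steps between neighbouring times in the order of the means exceeded the SD between libraries, for any of the 4 genes in any region.

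**Figure D3:**
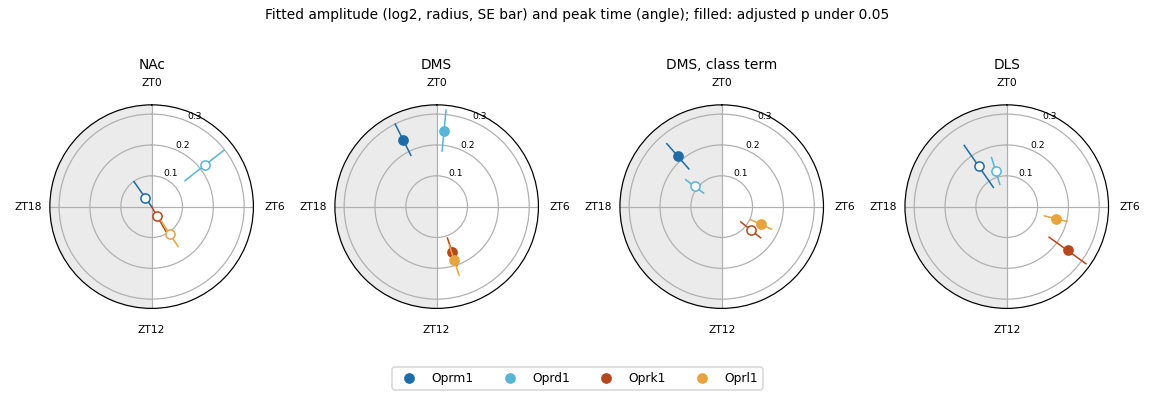
Fitted amplitude (radius, log2, with its SE as a bar) and peak time (angle, ZT0 at the top, dark phase shaded) of each receptor in NAc, DMS, DMS with a term for the class of mitochondrial rRNA share, and DLS; filled points passed the adjusted p of 0.05. Oprm1 and Oprd1 point to the late dark phase or the start of the light phase in DMS and DLS, and Oprk1 and Oprl1 to the middle or end of the light phase.

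Part of the DMS pattern moved with the class of mitochondrial rRNA share, which was unevenly spread over the day: 7 of 11 libraries at ZT10 and 10 of 12 at ZT18 were of the high class, against 3 of 12 at ZT2 and 2 of 12 at ZT22. The receptors differed between the classes in the same pairs. In a fit with time and sex, the high class was lower by limma for Oprd1 (-0.73 ± 0.06 log2, adjusted p = 6.04e-18) and Oprm1 (-0.24 ± 0.09, adjusted p = 0.00859). It was higher for Oprl1 (0.48 ± 0.06, adjusted p = 2.01e-11) and Oprk1 (0.32 ± 0.06, adjusted p = 4.96e-06). Of all DMS genes, 78.5% differed between the classes, so the receptors share this with most genes. Markers of several cell types moved too: of 5 markers of GABA interneurons, 4 were lower and 1 higher in the high class (median -1.11 log2), all 3 red blood cell genes were higher (median 1.36), all 5 striosome markers were lower (median -0.48), and all 4 microglial (0.33) and all 4 astrocyte markers (0.18) were higher. The summed level of the GABA interneuron list ran from 10.8 to 11.7 in the high and from 12.1 to 13.0079 in the low class, with no overlap, and that of the red blood cell list from 10.503 to 12.2 and from 8.47 to 11.5. The summed striosome level ran from 12.7 to 13.5 in the high class and from 13.1 to 13.9 in the low class, and the astrocyte sum from 14.4 to 14.96 and from 14.4 to 14.7. Their part in the receptor differences was not tested.

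Some receptors separated by class at single times. At ZT22 Oprd1 lay between 9.02 and 9.71 in the 10 low-class libraries and at 8.37 and 8.71 in the 2 high-class libraries. At ZT2 its 9 low-class values lay between 9.15 and 9.66 and the 3 of the high class between 8.34 and 8.67. The Oprd1 classes did not overlap at either time, nor at ZT14 and ZT18, but they did at ZT6 and ZT10. For Oprl1 they did not overlap at ZT2, ZT6, ZT18 and ZT22; at ZT18 the high class lay between 8.45 and 9.33 (n = 10) and the low class between 7.76 and 8.37 (n = 2). For Oprm1 they did overlap at ZT18, where the means were 8.25 (n = 10) in the high and 8.23 (n = 2) in the low class. The share of all DMS genes whose classes separate at single times was not computed. The class difference passed for 78.5% of them by limma, but this does not tell how many separate without overlap. The separation is therefore not read as a trait of the receptors.

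**Figure D4:**
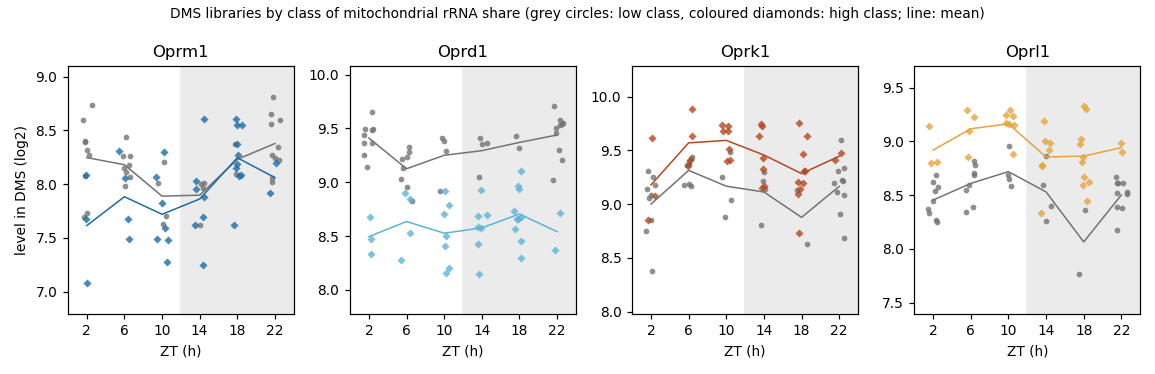
DMS levels (log2) of the 4 receptors against hours after lights on, with libraries of low mitochondrial rRNA share as grey circles, those of high share as coloured diamonds, the class mean as a line and the dark phase shaded. Oprd1 is lower and Oprl1 higher in the high class at each time, while the Oprm1 classes meet at ZT18.

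With the class in the model, 2 of the 4 receptors remained past the threshold in DMS, beside 25.2% of all genes. Oprm1 kept an amplitude of 0.22 ± 0.05 with the peak at ZT21.3 (adjusted p = 0.00605, limma), and Oprl1 had 0.14 ± 0.04 with the peak at ZT7.62 (adjusted p = 0.00881). Oprd1 had 0.11 ± 0.04 with the peak at ZT20.5 (adjusted p = 0.0534) and Oprk1 0.12 ± 0.04 with the peak at ZT8.58 (adjusted p = 0.0624). Within the low class alone Oprm1 (amplitude 0.22, adjusted p = 0.0378) and Oprd1 (0.16, adjusted p = 0.0266) passed, and within the high class alone none did, with Oprm1 at 0.25 (adjusted p = 0.0986) and Oprk1 at 0.19 (adjusted p = 0.0699). All 26 libraries of animals from 31 were of the high class, and with the number range in the model in place of the class Oprm1 (0.19, adjusted p = 0.0094) and Oprl1 (0.11, adjusted p = 0.0466) again passed. The Oprm1 amplitude was thus 0.22 with the class in the model, 0.19 with the number range, and 0.22 and 0.25 within the low and high class. In the high class it did not pass. The amplitude of Oprd1 went from 0.25 without to 0.11 with the class in the model.

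In DLS the kappa and nociceptin receptors passed the test. Oprl1 ran from 8.45 through a median of 8.64 to 8.89 at ZT10 (n = 11) and from 7.90 through 8.23 to 8.47 at ZT18 (n = 12), so that these times overlapped only at their edges. Its amplitude was 0.16 ± 0.04 (1.25-fold), with the peak at ZT6.92 ± 0.90 (adjusted p = 0.00311, limma). Oprk1 ran from 8.18 through 8.59 to 9.16 at ZT10 (n = 11) and from 7.15 through 8.22 to 8.66 at ZT22 (n = 12), with an amplitude of 0.24 ± 0.07 (1.40-fold) and the peak at ZT8.39 ± 1.16 (adjusted p = 0.0346). That call was close to the threshold: it was lost on leaving out any 1 of 7 libraries (adjusted p of 0.0518 to 0.0618), namely those of females 38 at ZT10, 47 and 48 at ZT18 and 3 at ZT22, and of males 13 at ZT6, 40 at ZT10 and 48 at ZT22. Male 13 at ZT6 had the fewest recovered reads outside ribosomal RNA of all DLS libraries. Of its recovered reads 68.4% were rRNA-like, against at most 3.89% in the other DLS libraries. Without male 13, Oprk1 had an amplitude of 0.22 (adjusted p = 0.0565, limma). The Oprk1 call was also lost with libraries scaled to equal sums (adjusted p = 0.0565) and with time as 6 free levels (adjusted p = 0.154). Oprl1 passed in both of these settings (adjusted p of 0.00993 and 0.00211).

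Oprm1 and Oprd1 did not pass in DLS, with amplitudes of 0.16 ± 0.08 (adjusted p = 0.319, limma) and 0.12 ± 0.05 (adjusted p = 0.114). Their fitted peaks lay at ZT21.7 and ZT22.9, and their highest means over both sexes at ZT22. At that time the sexes parted: Oprm1 had means of 7.65 in females and 6.91 in males, and Oprd1 8.99 and 8.59. In males ZT22 held the lowest Oprm1 mean of the day, and the highest Oprd1 mean was at ZT2 (8.72). Oprm1 levels at ZT22 ran from 6.28 through a median of 7.26 to 8.27, spanning most of the range of the region. Beside the 21% of all DLS genes, rhythm was called for 3 of 5 striosome markers (all with a light-phase peak), 3 of 5 GABA interneuron markers (all with a dark-phase peak), 3 of 5 markers of medium spiny neurons, 3 of 3 endothelial and 2 of 2 lateral-position markers. It was called for none of the 3 cortical, 4 astrocyte, 4 cholinergic, 3 red blood cell or 2 septal markers measured, and for 1 gene in each of the other 6 lists. Their part in the receptor patterns was not tested.

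The animals' number range also moved receptor levels in DLS. Oprm1 was lower in animals from 31 (6.91 ± 0.41, SD, n = 39) than in those up to 29 (7.44 ± 0.47, n = 31), a difference of -0.52 ± 0.10 in a fit with time and sex (adjusted p = 9.17e-05, limma). Oprk1 was lower by -0.33 ± 0.10 (adjusted p = 0.00987), whereas Oprd1 (0.00 ± 0.07, adjusted p = 0.976) and Oprl1 (-0.03 ± 0.05, adjusted p = 0.769) showed no difference past the threshold. In all, 24% of DLS genes differed. The summed striosome level ran from 12.4 to 13.5 in the lower and from 12.1 to 13.4 in the upper range. Of the markers, 3 of 5 striosome (1 higher, 2 lower in the upper range) and 3 of 3 endothelial (2 higher, 1 lower) differed. So did 2 of 4 microglial, 2 of 4 indirect pathway and 2 of 5 medium spiny neuron markers, all higher, and 2 of 4 cholinergic ones (1 each way). Other lists had at most 1. Their part in the receptor differences was not tested. With the range in the model the same 2 receptors passed for rhythm, Oprk1 with 0.26 ± 0.07 (adjusted p = 0.0126) and Oprl1 with 0.16 ± 0.04 (adjusted p = 0.00299). Within single ranges, Oprk1 passed in the upper range only (amplitude 0.33, adjusted p = 0.00637, against 0.20 and 0.535 in the lower), and Oprl1 in neither (0.23, adjusted p = 0.0664, in the lower and 0.11, adjusted p = 0.197, in the upper). The difference between the ranges in rhythm was not tested.

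In NAc no receptor passed. Oprd1 had the largest amplitude of the 4, 0.22 ± 0.08 with the peak at ZT3.47 (adjusted p = 0.27, limma), larger than that of 95.05% of NAc genes. Its levels ran from 7.14 through a median of 8.04 to 8.90 at ZT2 (n = 13) and from 6.56 through 7.51 to 8.35 at ZT18 (n = 12), with wide overlap. Oprl1 had 0.11 ± 0.05 (adjusted p = 0.449), and Oprm1 and Oprk1 had 0.03 each (adjusted p of 0.941 and 0.932), larger than only 15.4% and 14.5% of the genes of the table.

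Oprk1 in NAc had neighbouring times at the ends of its range, a point noticed after the values were seen. Its lowest mean was at ZT2 with 9.42 ± 0.39 (SD, n = 13) and its highest at the next time, ZT6, with 9.90 ± 0.30 (n = 13). With time as 6 free levels the range of the fitted means was 0.48, and this too did not pass (adjusted p = 0.302, limma). In DMS the lowest mean was also at ZT2, with 9.05 ± 0.31 (n = 12) against 9.40 ± 0.20 (n = 12) at ZT6.

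A balance of the receptors was also taken within single libraries, so that a scale common to a library largely cancels in it. The mean of Oprk1 and Oprl1 minus the mean of Oprm1 and Oprd1 is a description of these 4 chosen genes and was not tested. Its pairs are those of the fitted peaks above, so its course in DMS and DLS restates those fits and is no further support for them. In DMS it was 0.09 ± 0.43 (SD, n = 12) at ZT22, 0.17 ± 0.54 (n = 12) at ZT2 and 0.93 ± 0.51 (n = 11) at ZT10. In DLS it was 0.20 ± 0.59 (n = 12) at ZT22 and 0.90 ± 0.22 (n = 11) at ZT10. The DLS values at ZT22 differed by sex. Females 2, 3, 4 and 5 lay at -0.50, -0.79, -0.38 and -0.37, females 49 and 50 at 0.18 and 0.53, and males between 0.10 and 1.01. In NAc the balance went from 0.93 ± 0.58 (n = 13) at ZT2 to 1.40 ± 0.47 (n = 12) at ZT10. All 3 regions had their highest mean balance at ZT10. In NAc, where no receptor passed for rhythm, ZT18 lay close to it with 1.32 ± 0.35 (n = 12), well within the SD. The NAc course is therefore not read as sharing that of the dorsal regions. Within the DMS classes it was -0.10 (n = 9) at ZT2 and 0.37 (n = 4) at ZT10 in the low class, and 0.99 (n = 3) and 1.25 (n = 7) in the high class, so the classes differed more than these times did.

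**Figure D5:**
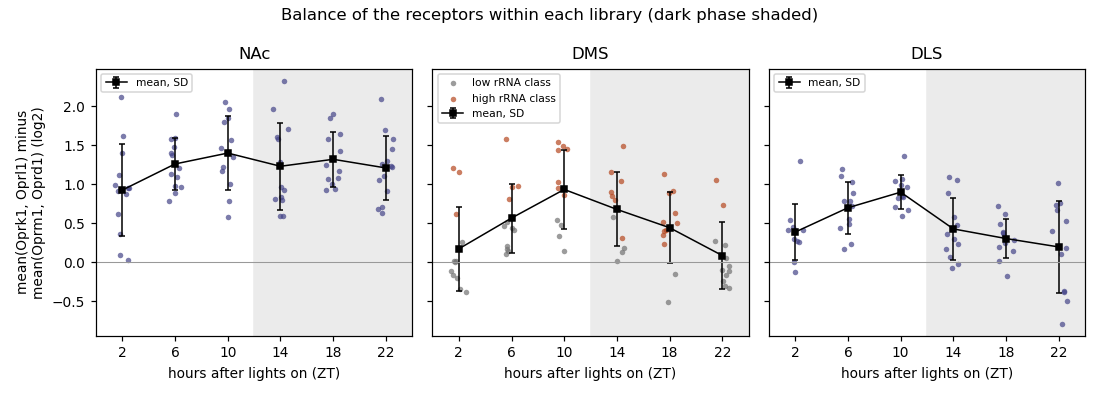
Balance of the receptors in each library, the mean level of Oprk1 and Oprl1 minus that of Oprm1 and Oprd1 (log2), against hours after lights on, with the mean and SD at each time as black squares and bars and the DMS classes in grey (low) and red (high). The mean is highest at ZT10 in every region (1.40 in NAc, 0.93 in DMS and 0.90 in DLS), though in NAc ZT18 is close (1.32). The high-class DMS libraries lie mostly above the low-class ones.

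The dark phase was then set against the light phase, as the mean of ZT14, ZT18 and ZT22 minus that of ZT2, ZT6 and ZT10 with sex in the model. In these fits, without the DMS class, Oprl1 in DLS was the only receptor to pass in the 3 regions, and it was lower in the dark. Its levels ran from 8.10 through a median of 8.51 to 9.16 in the light (n = 34) and from 7.90 through 8.34 to 8.82 in the dark (n = 36), which overlap. The difference was -0.22 ± 0.05 (95% interval -0.33 to -0.12, adjusted p = 0.0024, limma), where 8.52% of DLS genes passed and 3.85% were lower in the dark. Oprk1 in DLS had -0.28 ± 0.11 (interval -0.49 to -0.07, adjusted p = 0.0927), and it passed only on leaving out male 10 at ZT2 (-0.32, adjusted p = 0.0297). Within the ranges of animal numbers, Oprl1 had -0.34 (adjusted p = 0.0355) in the lower and -0.11 (adjusted p = 0.227) in the upper range, and Oprk1 had -0.09 (adjusted p = 0.881) and -0.40 (adjusted p = 0.0137).

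In DMS no receptor differed between dark and light, where 8.4% of genes did. Oprl1 had -0.10 ± 0.07 (adjusted p = 0.42, limma) and Oprm1 0.16 ± 0.08 (adjusted p = 0.206). With the class in the model, where 14.6% of genes passed and 6.71% were lower in the dark, Oprl1 fell by 0.17 ± 0.05 in the dark (adjusted p = 0.0161) and Oprm1 had 0.20 ± 0.08 (adjusted p = 0.0655). In NAc, where 1.28% of genes passed, the differences ran from -0.17 for Oprd1 to 0.04 for Oprk1, and no receptor passed.

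No receptor differed in level between the sexes in any region by limma. Of all genes, 0.0758% did so in NAc, 0.202% in DLS and 0.909% in DMS. The 95% intervals of male minus female reached from -0.35 (Oprm1 in DLS) to 0.33 (Oprd1 in NAc), so differences up to that size remained within the intervals. Fitted by sex, amplitudes passed in females for Oprk1 (0.35 ± 0.10, adjusted p = 0.0322) and Oprl1 (0.24 ± 0.05, adjusted p = 0.00236) in DLS and for Oprm1, Oprk1 and Oprl1 in DMS (0.29, 0.25 and 0.26, with adjusted p of 0.0295, 0.0222 and 0.0308). Of all genes, 17.8% passed in females in DLS and 17.9% in DMS, against 4.4% and 9.92% in males. In males no receptor passed, with amplitudes of 0.14 and 0.09 for Oprk1 and Oprl1 in DLS and 0.21, 0.07 and 0.12 in DMS. Low shares of mitochondrial rRNA in DLS fell mostly in females at ZT22: females 2, 3 and 4 had 28.8%, 27.7% and 29.9%. Apart from male 13 at ZT6 (13.2%), the next lowest DLS share was 34.6%, in female 51 at ZT6. The part of these libraries in the amplitudes of females was not tested. The difference of rhythm between the sexes itself did not pass for any receptor (smallest adjusted p 0.548, for Oprm1 in DLS), nor for any gene of any table, and with the class in the model no DMS receptor passed in either sex, where 12.7% of genes did in females and 12.6% in males. The level of no receptor differed between the sexes with the class in the model, where 4.21% of genes did.

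A joint fit on the shared genes compared the rhythms of the regions, and no receptor passed. The smallest adjusted p by limma was 0.31 for Oprm1 between NAc and DMS, with amplitudes of 0.03 and 0.24, in a comparison where 0% of genes passed. Between NAc and DLS 0.257% of genes passed, and Oprk1 had amplitudes of 0.03 and 0.24 (adjusted p = 0.561). Between DMS and DLS 0% passed, and Oprl1 had 0.18 and 0.16 with peaks at ZT10.8 and ZT6.92 (unadjusted p = 0.0485, adjusted p = 0.571). A receptor that passed in one region and not in another is therefore not shown to differ between them.

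Genes that make, cut and transmit opioid signals were read from lists set by their role, and their counts stand beside the 21% of all genes called in DLS, 51.3% in DMS and 25.2% in DMS with the class in the model. Of the ligand precursors, Penk and Pdyn were listed in every region while Pnoc and Pomc were listed in none. Penk and Pdyn both passed for rhythm in DLS: Pdyn, the dynorphin precursor, with an amplitude of 0.16 ± 0.05 and the peak at ZT4.98 (adjusted p = 0.0259, limma), and Penk, the enkephalin precursor, with 0.10 ± 0.03 and the peak at ZT23.3 (adjusted p = 0.0203). Pdyn also fell by 0.21 in the dark there (adjusted p = 0.0377). In DMS neither passed without the class in the model, and Penk passed with it (0.11 ± 0.04, peak ZT0.44, adjusted p = 0.0418). In NAc none of the listed genes passed, in any list.

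Of 4 genes that process the precursors, 1 passed in DLS and 2 in DMS, or 1 with the class in the model. Pcsk1, a convertase that cuts them, had 0.27 ± 0.06 with the peak at ZT19.1 in DLS (adjusted p = 0.00144, limma) and 0.30 ± 0.05 with the peak at ZT16.9 in DMS (adjusted p = 8.63e-05), and Pcsk2 had 0.06 ± 0.02 in DMS (adjusted p = 0.0253, or 0.139 with the class). Of 5 measured peptidases, 2 passed in DLS and 3 in DMS, and 3 in DMS with the class, where Ece1 was lost (adjusted p = 0.362) and Dpp3 gained (adjusted p = 0.0234). Mme, which encodes neprilysin, an enzyme that degrades enkephalins, was higher in the dark in both (0.20, adjusted p = 0.000151, in DLS and 0.22, adjusted p = 0.000418, in DMS), with peaks at ZT20.4 and ZT18.1.

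Among the 12 RGS regulators, which speed the switching off of G proteins, 7 passed in DLS and 7 in DMS, or 8 with the class in the model. The DMS count is near the share of all genes. Rgs9, the striatal member, peaked at ZT4.65 in DLS (0.15 ± 0.03) and at ZT3.28 in DMS (0.22 ± 0.04), and Rgs4 at ZT3.12 in DLS (0.20 ± 0.03). Rgs20 peaked at ZT22.5 in DLS (0.17 ± 0.03) and at ZT22.8 in DMS (0.21 ± 0.03), and Gnb5, the partner of Rgs9, at ZT18 and ZT18.5 (0.09 ± 0.02 and 0.13 ± 0.03). The members of this list therefore did not share a phase. All of these amplitudes passed by limma. The median amplitude of the list was 0.09 in DLS and 0.12 in DMS.

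The lists further along the pathway had counts in DLS near or below the share of all genes. Of 5 inhibitory G protein subunits, 4 passed in DMS, 1 with the class in the model (Gnai2, 0.08 ± 0.02, peak ZT7.28) and none in DLS. Of 6 measured kinases and arrestins, which end receptor signalling, 3 passed in DMS with or without the class (Grk5, Grk6 and Arrb1), and in DLS only Grk6 did (0.12 ± 0.03, peak ZT22.6). Of 3 measured potassium channel subunits, 2 passed in DMS, Kcnj9 (0.51 ± 0.14) and Kcnj6 (0.28 ± 0.08), but none with the class in the model and none in DLS. Of 5 adenylyl cyclases, 3 passed in DMS and only Adcy9 in DLS (0.14 ± 0.03, peak ZT12). With the class in the model 2 passed in DMS, Adcy3 and Adcy9, while Adcy1 (adjusted p = 0.124) and Adcy5 (adjusted p = 0.454) did not. Of the receptor partners, Gpr139, an orphan receptor that opposes mu signalling and was listed only in DLS, had 0.31 ± 0.06 with the peak at ZT0.35 (adjusted p = 0.000125, limma), and Wls passed in DMS without (0.17 ± 0.04) and with the class (0.09 ± 0.03).

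Variation between libraries that time, sex and the DMS class did not account for was shared with different genes by each receptor. The mean Pearson r over the 3 regions is given as a description, since the libraries of a region share their normalisation. Oprd1 was most like Caln1 (0.72), Speg (0.70) and Jcad (0.69). Oprm1 was most like Pcdh17 (0.58), Hpcal4 (0.56) and Pde1c (0.53), Oprk1 like Pkia (0.48), Prkar2b (0.45) and Pdpk1 (0.45), and Oprl1 like Impact (0.49), Tmx4 (0.45) and Gabrg1 (0.44). Over all other shared genes, the central 95% of the mean r lay between -0.46 and 0.56 for Oprd1 and between -0.25 and 0.27 for Oprk1.

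Against markers of the projection neuron types, Oprd1 went with Drd2, which marks the indirect pathway (r = 0.59 in NAc, 0.68 in DMS and 0.49 in DLS), but hardly with Penk of the same neurons (0.09, 0.27 and 0.05). Oprk1 went with Drd1, which marks the direct pathway, in NAc (0.64) and DMS (0.40) but not in DLS (0.01), and with Pdyn (0.47, 0.11 and 0.35). Oprm1 went with Chat, the enzyme that marks cholinergic interneurons (0.31, 0.30 and 0.49), but less with the other markers of these cells, Slc5a7 (-0.12, 0.28 and 0.16) and Slc18a3 (0.07, 0.23 and -0.05). This was not particular to Oprm1: Oprd1 had 0.26, 0.32 and 0.40 with Chat, -0.14, 0.42 and 0.00 with Slc5a7 and 0.23, 0.48 and 0.20 with Slc18a3. With striosome markers Oprm1 had 0.37, 0.19 and 0.60 (Lypd1) and 0.16, 0.40 and 0.29 (Sema5b). It had 0.15, 0.25 and 0.02 with Kremen1 and 0.31, 0.27 and -0.09 with Kcnip2. Oprd1 was higher in each region with Kremen1 (0.37, 0.37 and 0.52) and Kcnip2 (0.65, 0.66 and 0.62). It had 0.26, 0.17 and 0.30 with Sema5b and -0.06, -0.17 and 0.04 with Lypd1. Over all other shared genes, the central range of the mean r, taken as above, was -0.30 to 0.33 for Oprm1. Of these markers only Lypd1 (mean 0.39) lay outside it. For Oprd1 only Kcnip2 (0.64) lay above 0.56, the upper end of its range. Among the receptors, Oprm1 and Oprk1 varied together in DLS (0.51) and DMS (0.35) and hardly in NAc (0.07), while Oprd1 and Oprl1 had -0.43 in NAc, 0.00 in DMS and -0.26 in DLS. These values still hold the number range, and in DLS both Oprm1 and Oprk1 moved with it.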

How the data were processed

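RNA of NAc, DMS and DLS punches was sequenced as paired reads of 75 bases. Per the submitters' processing notes and the series' design text, reads were aligned with HISAT2 2.1.0 and counted with HTSeq 0.10.0. The genome was GRCm38 per the design text, while the notes list GRCh38. The authors filtered genes, normalised them with DESeq2 within each region and deposited log2 values. With 1 subtracted after undoing the log, 100% of nonzero DMS and DLS values (median over libraries) came out as whole reads within 0.01 read. In NAc 2.06% did, and 9 values lay below 0.

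Rhythm (24 h cosine and sine, sex), dark minus light, male minus female, sex difference of rhythm and a joint fit over regions were computed with limma 3.58.1 (R 4.3.3) on all genes, with a variance trend and Benjamini-Hochberg adjustment. The fits were tested on simulated data. Python 3.11.15 made the summaries. The members and lists were chosen with earlier results of these data known. The 4 receptors were always named, and up to 4 genes of each other list, those of smallest rhythm p among those past the threshold in a region. Likeness used residuals from time as 6 levels, sex and DMS class, and the 3 genes of highest mean r were named. Gene models were those of GENCODE on GRCm38, and promoters those of RefSeq. Alternatives were the range of animal numbers, the class, the mitochondrial rRNA share, equal-sum scaling, a pseudocount of 10, a minimum mean log2 of 5, time as 6 levels, no variance trend, voom on recovered reads, and leaving out each library. The animals sampled in several regions pair libraries: residuals of the same animal had median correlations of 0.05 (63 animals, NAc and DMS), 0.02 (57, NAc and DLS) and 0.10 (51, DMS and DLS). Each library of a region came from its own animal.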

Additional observations from a re-analysis of the deposited data

Results flagged for a closer look

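Values were grouped by receptor, region, sex and time, and 10 of these 144 sets held a library far from the rest, where chance flags about 1 in 20. The same libraries recur in the sets of the 4 receptors. Of these, 5 were in DMS, from 4 libraries that were all of the high class of mitochondrial rRNA share. Male 31 at ZT2 had Oprd1 at 8.67, where the others lay between 9.36 and 9.50, and Oprl1 at 9.15, where the others lay between 8.33 and 8.62, and no other library of that set was of its class. Male 47 at ZT22 had Oprd1 at 8.37 (others 9.30 to 9.71), again alone in its class. Female 51 at ZT6 had Oprk1 at 9.88 (others 9.18 to 9.44) and male 34 at ZT6 had Oprm1 at 7.49 (others 7.98 to 8.26), each with 1 other library of its class.

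In DLS, female 39 at ZT10 had Oprd1 at 8.83 (others 8.36 to 8.51) and male 38 at ZT10 had Oprm1 at 6.39 (others 7.07 to 7.20). In NAc, male 12 at ZT6 had Oprd1 at 7.22 (others 7.96 to 8.45), male 27 at ZT18 had Oprk1 at 10.26 (others 9.52 to 9.65) and female 20 at ZT10 had Oprl1 at 9.83 (others 9.39 to 9.53).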

How the results depend on the processing

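Of the 4 receptors called rhythmic in DMS, 2 were called with the class, the number range or the mitochondrial rRNA share in the model, 2 in the low class alone and 0 in the high class alone. The genes called in all went from 6207 to 3051, 3772 and 3459 with these terms, and to 948 and 1811 within the classes. With the class in the model, single libraries decided 2 receptors: Oprd1 (adjusted p 0.0261 to 0.0894) passed without any 1 of 15 (females 2, 3, 31, 39, 40, 41, 43, 51, 52 and males 17, 18, 28, 37, 45, 47) and Oprk1 (0.0288 to 0.0971) without any 1 of 7 (females 4, 9 and males 1, 3, 5, 16, 28). In DLS, 1 of the 2 rhythmic receptors was called with equal-sum scaling, 1 with time as 6 levels, 0 in the lower and 1 in the upper number range alone, and 1 to 2 on leaving out each library. The DLS genes called for rhythm went from 2392 to 1477 with equal-sum scaling and 331 in the lower range, and those for dark against light from 971 to 463 and 121.

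For dark against light, 1 receptor (Oprl1) was called in DMS with the class and 1 with the rRNA share, against 0 without; the DMS genes called went from 1016 to 1771 and 1974, and to 2055 with the range. Leaving out libraries gave 1 to 2 receptors in DLS. With the class, Oprm1 in DMS passed without any 1 of 8 libraries (females 6, 10, 28, 39, 45, 51 and males 22, 42). Sex calls in DMS went from 110 genes to 509 (class), 1995 (range) and 980 (rRNA share), and in NAc from 9 to 330 (rRNA share), with no receptor among them.

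Signs turned in 12 values under these settings, none of them called. Dark minus light turned for Oprd1 in DMS (-0.000127 with the range, -0.0313 with equal sums), Oprm1 in NAc (-0.00161, equal sums), and Oprm1 and Oprd1 in DLS (-0.0637 and -0.0385, upper range alone). Male minus female turned for Oprl1 in DLS (-0.0375, equal sums), and in DMS for Oprd1 (-0.137 with the range, -0.0363 with the class, -0.200 in the high class), Oprl1 (0.0574, range) and Oprm1 (-0.0577, range; -0.0620, low class). Leaving out single libraries turned further values near 0, none called: dark minus light of Oprd1 in DMS (-0.0232 to 0.0313), and male minus female of Oprl1 in DLS (-0.0190 to 0.0207) and NAc (-0.0266 to 0.0157), of Oprm1 in NAc (-0.00845 to 0.0410) and DMS (-1.4e-05 to 0.0524; with the class -0.0100 to 0.0364) and of Oprd1 in DMS (-0.0157 to 0.0404). The causes were not tested. With the animal as a replicate block in the joint fit, 0 receptors differed in rhythm between any regions, as without it, and 35 genes in place of 29 differed between NAc and DLS. The single-range fits, the single-class fits for sex and phase, and the share as covariate for those were chosen after seeing the data.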
